A study of Mus musculus with 28 samples.

Results

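The effect of WY14643 on the mouse heart was read across both strains of the study, with all 28 of its 28 arrays. The 14 arrays titled as given WY14643 were set against the 14 titled without it, and strain entered the fit as a covariate. The 4 groups of 7 arrays were control hearts with WY14643, untreated control hearts, del337TR hearts with WY14643 and untreated del337TR hearts. The study's title ties the deletion strain, del337TR, to resistance to thyroid hormone, and its design text calls WY14643 a PPARalpha activator. The labels give no dose, duration, age or sex, and do not say which gene the deletion lies in, in which cells the mutant acts, or whether untreated animals received a vehicle. Total RNA came from frozen heart tissue, and the design text counts individuals, so each array is taken as 1 animal. The test therefore covers the spread between these animals only.

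PPARalpha is a nuclear receptor that binds DNA as a pair with the retinoid X receptor and switches on genes for fatty acid uptake, transport and oxidation when a ligand such as WY14643 occupies it. The adult heart draws most of its energy from fatty acids, and PPARalpha is one of its main regulators of that fuel choice. The usual element in front of its target genes is a direct repeat of AGGTCA with 1 base between the copies. Thyroid hormone receptors bind DNA with the same retinoid X partner.

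A few sequences belong to the genes described below and are credited to RefSeq on build GRCm38.p6. Mir22hg, a long noncoding RNA gene at chr11:75461539-75466690, holds the hairpin of the microRNA miR-22 at chr11:75463716-75463810. Both mature arms are on the plus strand, at chr11:75463734-75463755 and chr11:75463772-75463793, and capitals mark the seed, bases 2 to 8. The array read the host transcript and not these mature forms.
miR-22-5p: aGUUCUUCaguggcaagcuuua
miR-22-3p: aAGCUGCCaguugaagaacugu

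Promoter windows of 300 bases, 250 before and 50 after the gene's start, were searched on both strands for 2 motifs. One was the heat shock motif GAANNTTC, and the other the AGGTCA repeat with up to 2 mismatches over both copies. The heat shock motif stood in 11 of the 16 heat shock chaperone genes with a window (68.8%), and in 9.04% of all 27025 genes. The windows of Hspa1a (chr17:34972233-34972280, minus strand), Hspb8 (chr5:116422835-116422882, minus strand) and Bag3 (chr7:128523605-128523632, plus strand) are shown because these chaperone genes are described below, with the motif in capitals. Hspa1b, a near-identical copy of Hspa1a, has the same letters at chr17:34959315-34959362.
Hspa1a: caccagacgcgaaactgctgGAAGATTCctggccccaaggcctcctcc
Hspb8: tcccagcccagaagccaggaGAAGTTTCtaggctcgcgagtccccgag
Bag3: aagttctctggatgggaccaGAAGTTTC

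The AGGTCA repeat stood in 5 of the 25 PPARalpha target genes with a window (20.0%) and in 3 of 18 beta-oxidation genes (16.7%), but also in 2 of 16 heat shock chaperone genes (12.5%), against 4.40% of all genes. It stood in 0 of 12 genes with a window in each of the sets of 15 genes ranked highest below. An exact repeat stood in 0 of the 25 targets and in 13 of all genes. The windows of Ucp3 (chr7:100472920-100472972, plus strand), Cd36 (chr5:17835927-17835979, minus strand) and Plin2 (chr4:86670252-86670304, minus strand) are shown because these genes are known PPAR targets in muscle. Capitals mark the repeat, which in Cd36 and Plin2 is read on the opposite strand. Each has 2 mismatches, and a match is a description of letters and not a measured binding site.
Ucp3: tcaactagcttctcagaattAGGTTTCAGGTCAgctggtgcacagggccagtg
Cd36: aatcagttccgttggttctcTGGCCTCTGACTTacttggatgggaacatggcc
Plin2: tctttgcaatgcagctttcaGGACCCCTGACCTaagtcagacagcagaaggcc

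Values are scaled signals on a linear scale, with array medians from 60.0 to 77.8 and a highest signal of 26183.2. All 12 ventricular cardiomyocyte markers were bright. The ventricular myosin light chain gene Myl2 averaged 17180 ± 2696 with WY14643 and 15550 ± 1974 without (SD, n = 14 each), and the signals of the 12 markers summed to between 135223.6 and 221683.5 with WY14643 and between 129818.8 and 185628.4 without, as the heart label requires. Atrial tissue varied between arrays in both treatments, with an atrial score (mean log2 signal of Myl4, Myl7 and Sln) from 4.47 to 13.4 with WY14643 and from 3.75 to 13.3 without (two-sided permutation p = 0.921, adjusted over 7 array measures 0.921). The actin 3' to 5' ratio, a sign of RNA quality, was 1.31 ± 0.18 with WY14643 and 1.27 ± 0.10 without (permutation p = 0.539, adjusted 0.755). Xist and Eif2s3y signals divided the treated arrays into 4 female and 10 male, and the untreated ones into 6 female and 8 male. In controls there were 3 female and 4 male treated and 2 female and 5 male untreated arrays, and in del337TR 1 female and 6 male treated and 4 female and 3 male untreated arrays. With sex as a covariate 0 probe sets passed limma's adjusted threshold over both strains, and its part in the effects within each strain was not tested. The array least like its group was replicate 7 in all 4 groups.

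Over both strains, 0 of 45037 probe sets passed limma's test at an adjusted p of 0.05 (0%), and the lowest adjusted p was 0.309, for B3gntl1. At an unadjusted p under 0.05 there were 3374 probe sets (7.49%), of which 1319 were higher with WY14643 (2.93%) and 2055 lower (4.56%). Counted by gene, each gene standing for its brightest probe set, 1494 of 18193 genes reached this level (8.21%), 457 of them higher (2.51%) and 1037 lower (5.70%). The median gene stood at -0.01 on the log2 scale, and 46.1% of genes stood above 0. No gene can therefore be said to have changed over both strains, and the genes below are given by their values, ranked by p.

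The strains, whose arrays are separate, were then set side by side. Within controls 3038 probe sets had an unadjusted p under 0.05 (6.75%), and within del337TR 2601 (5.78%), with 0 past limma's adjusted threshold in each. In both strains and in the same direction there were 176 (0.391%), which is 5.79% of the control list and 6.77% of the del337TR list. Of these, 62 were higher and 114 lower with WY14643, with 85 and 92 under quantile normalization and 73 and 84 under centring of each array. Over all probe sets 52.8% had the same sign in both strains, and the correlation of the log2 changes was r = 0.07 (Spearman's rho 0.08) as a description over 45037 probe sets that share arrays and are not independent. Among the 27022 brighter probe sets r was 0.11. Treated and untreated arrays of a strain did not overlap for 24 probe sets higher (0.0533%) and 15 lower (0.0333%) in controls, and for 17 higher (0.0377%) and 16 lower (0.0355%) in del337TR. In both strains and the same direction this held for 0 probe sets (0%). Tested directly, the effect in del337TR less that in controls passed limma's adjusted threshold for 0 probe sets, and 2207 (4.90%) had an unadjusted p under 0.05.

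**Figure D1:**
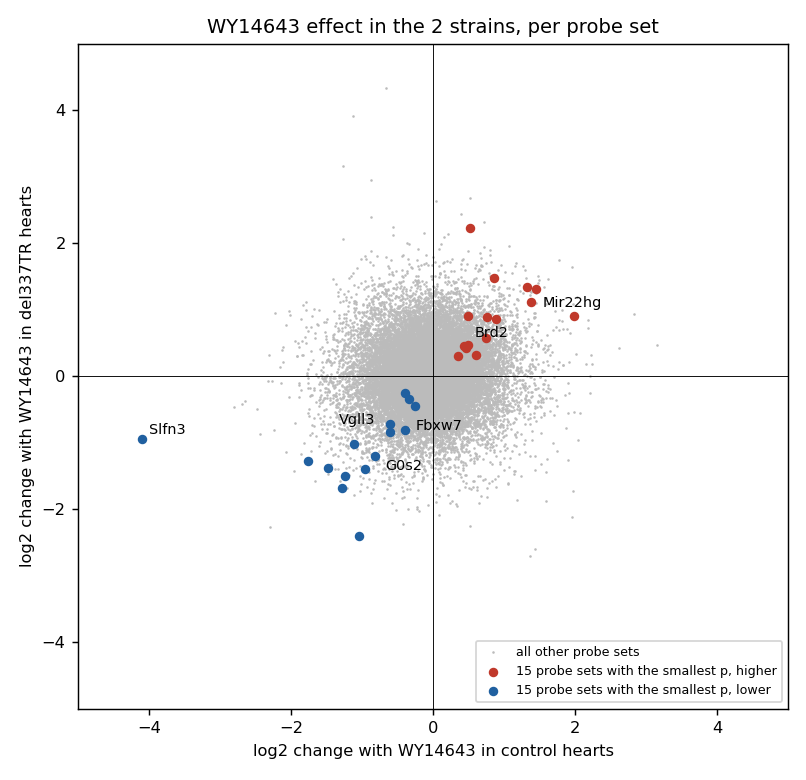
Each point is 1 of 45037 probe sets, with the log2 change with WY14643 in control hearts on the x axis and in del337TR hearts on the y axis. The 15 genes of smallest p in each direction are coloured. The cloud is nearly round (r = 0.07), and the coloured genes, chosen on the mean of both axes, all lie in the corners where both strains have the same sign.

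The 15 genes of smallest p on the higher side were B3gntl1, Mir22hg, Akap13, Faap100, Tsks, Eef1akmt1, Trim2, Ece1, Slco1c1, Phf20l1, Brd2, Syndig1l, Alpl, Uck2 and Wfikkn1. Their log2 changes ran from 0.33 to 1.45 and their limma adjusted p from 0.309 to 0.448. Of the 15, 9 had a mean signal under 64, near the dim end of the array. B3gntl1 itself ran from 4.5 to 18.3 with WY14643 and from 4.1 to 7.1 without, and a second probe set of this gene stood at -0.06 ± 0.29 (SE). Phf20l1 ran from 73.4 to 163.8 with WY14643 and from 47.8 to 115.8 without on its ranked probe set. A brighter Phf20l1 probe set ran from 315.2 to 607.7 with WY14643 and from 377.7 to 533.4 without. The account below takes the other brighter genes, and adds Akap13, whose ranked probe set had a mean signal under 64.

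Mir22hg, the host gene of miR-22, a microRNA abundant in heart muscle, had the largest change among the bright genes of this set. In treated controls its signals were 909.2, 1719.2 and 3132.7 (lowest, median and highest of 7 arrays), against 250.4, 669.1 and 1655.7 in untreated controls. In treated del337TR hearts they were 846.7, 1941.8 and 2591.6, against 257.0, 777.8 and 1866.7 in untreated del337TR hearts. All 14 treated arrays lay above the untreated median, and in each strain 4 of the 7 treated arrays lay above every untreated one, so the groups overlapped. The log2 change over both strains was 1.25 ± 0.27 (SE, n = 14 per treatment, limma adjusted p = 0.329), with 1.38 ± 0.38 in controls and 1.12 ± 0.38 in del337TR. The effects of the strains differed by -0.26 ± 0.54. Over the 7 alternative settings run for single genes, and over 28 repeats with 1 array missing, the change stayed between 1.13 and 1.36. The lowest untreated array was replicate 6 in both strains, at 250.4 and 257.0, and no repeat left both out. The same 2 arrays were the lowest untreated ones of their strains for Brd2, and the highest for Fbxw7 and G0s2.

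Brd2, a bromodomain protein that reads acetylated histones, had 755.1, 949.4 and 1051.3 in treated controls, against 492.2, 692.7 and 1159.9 in untreated controls. The del337TR arrays of Brd2 gave 784.0, 871.0 and 1114.6 with WY14643, against 490.5, 627.9 and 1100.3 without. All 14 treated arrays lay above the untreated median, but the highest untreated array of each strain lay among or above the highest treated ones. The log2 change was 0.44 ± 0.11 (limma adjusted p = 0.448), and a second Brd2 probe set stood at 0.26 ± 0.10. The lowest treated control array, replicate 5, stood apart from its group.

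Alpl, the tissue-nonspecific alkaline phosphatase, had 320.9, 405.9 and 537.3 in treated controls, against 237.0, 341.5 and 372.9 in untreated controls. Its signals in del337TR were 330.8, 387.7 and 413.3 with WY14643, against 243.2, 296.0 and 368.0 without. In each strain 5 of 7 treated arrays lay above every untreated one. The log2 change was 0.33 ± 0.09 (limma adjusted p = 0.448), nearly equal in controls (0.35 ± 0.12) and del337TR (0.31 ± 0.12).

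Uck2, a uridine and cytidine kinase of pyrimidine salvage, had 246.3, 322.5 and 425.8 in treated controls, against 195.5, 225.2 and 256.5 in untreated controls. Treated del337TR arrays of Uck2 ran from 180.7 over a median of 245.8 to 559.3, against 169.3, 199.2 and 272.6 in untreated del337TR. In controls 5 of 7 treated arrays lay above every untreated one, and in del337TR 2 did. The log2 change was 0.48 ± 0.12 (limma adjusted p = 0.448), and 5 other Uck2 probe sets stood between 0.05 and 0.35. Eef1akmt1, a lysine methyltransferase of an elongation factor, and Akap13, an anchoring protein of protein kinase A, are less settled. Eef1akmt1 stood at 0.44 ± 0.11 on the ranked probe set and at 0.19, 0.10 and -0.03 on its other three. The brightest Akap13 probe set stood at 0.04 ± 0.06, where the ranked one stood at 0.87 ± 0.20.

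**Figure D2:**
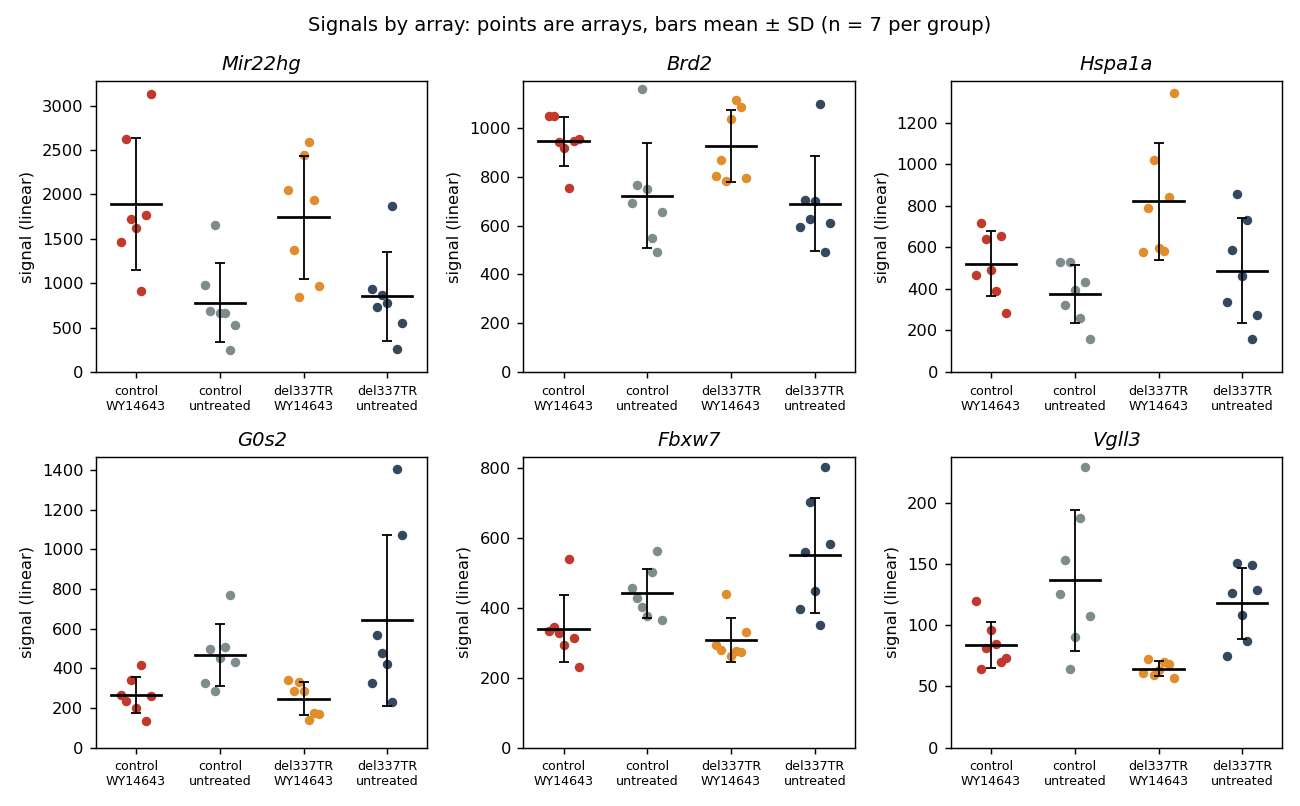
Linear signals of 6 genes by array, with treated controls, untreated controls, treated del337TR and untreated del337TR from left to right, where points are arrays and bars are the mean ± SD of 7. Mir22hg, Brd2 and Hspa1a sit higher with WY14643 in both strains and G0s2, Fbxw7 and Vgll3 lower, with overlapping points in all panels except Vgll3 in del337TR.

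The 15 genes of smallest p on the lower side were Il9, Vgll3, Zfp874b, 4932412D23Rik, Ap3m2, Fbxw7, Prps1l1, Dnajc1, Arid4b, Arhgap20, Rftn2, Cobl, Mob3c, Slfn3 and G0s2. Their log2 changes ran from -0.33 to -2.52, all with a limma adjusted p of 0.329, and 9 of them had a mean signal under 64.

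G0s2 encodes a protein that blocks the triglyceride lipase Pnpla2, and is known as a PPAR target in mouse liver and fat. Its signals were 136.9, 261.3 and 415.9 in treated controls, against 283.9, 454.4 and 767.4 in untreated controls. In del337TR it gave 141.2, 284.6 and 342.9 with WY14643, against 228.6, 479.9 and 1403.2 without. All 14 treated arrays lay below the untreated median, and 5 treated controls and 3 treated del337TR arrays lay below every untreated array of their strain. The log2 change was -1.01 ± 0.23 (SE, limma adjusted p = 0.329), with -0.83 ± 0.33 in controls and -1.20 ± 0.33 in del337TR. Pnpla2, the lipase that G0s2 restrains, stood at 0.06 ± 0.06, with 3833 ± 390 with WY14643 and 3671 ± 329 without (SD, n = 14 each).

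Fbxw7 is the substrate-binding part of a ubiquitin ligase. It had 231.8, 327.1 and 539.5 in treated controls, against 365.8, 429.8 and 561.9 in untreated controls. The signals in del337TR were 262.8, 280.7 and 439.3 with WY14643, against 352.5, 559.1 and 804.2 without. In each strain 6 of 7 treated arrays lay below every untreated one, with 1 treated array among the untreated. Its log2 change was -0.60 ± 0.13 (limma adjusted p = 0.329), and a second Fbxw7 probe set stood at -0.50 ± 0.12 (limma adjusted p = 0.444).

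Vgll3, a cofactor of TEAD transcription factors, was dimmer. It had 64.5, 81.0 and 119.4 in treated controls, against 64.2, 125.8 and 228.8 in untreated controls. In treated del337TR hearts it ran from 57.0 over 63.8 to 72.4, against 74.9, 125.9 and 150.9 in untreated del337TR hearts. The groups overlapped in controls and were separate in del337TR, where 16 probe sets (0.0355%) were lower without overlap. The Vgll3 change was -0.72 ± 0.15 (limma adjusted p = 0.329), and its 2 other probe sets stood at -0.71 ± 0.24 and -0.60 ± 0.25.

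Among the bright genes of this set, Arid4b had the smallest difference between the strains. Arid4b, a subunit of a histone deacetylase complex, had a log2 change of -0.34 ± 0.11 in controls and -0.34 ± 0.11 in del337TR, and averaged 467 ± 62.0 with WY14643 and 590 ± 66.4 without (SD, n = 14 each). All 14 treated arrays of Arid4b lay below the untreated median. Dnajc1, a co-chaperone of the endoplasmic reticulum, stood at -0.36 ± 0.08, but its brightest probe set stood at -0.04 ± 0.08. Il9, a cytokine of lymphocytes, averaged 32.4 ± 16.1 with WY14643 and 67.9 ± 21.0 without, dim in every group.

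Slfn3, a schlafen family gene, entered the set through the control strain. In treated controls its signals were 2.6, 6.0 and 10.3, against 57.1, 83.5 and 178.6 in untreated controls. Both del337TR groups were at the dim end, with 0.8, 1.0 and 13.1 with WY14643, against 0.6, 7.7 and 22.0 without. The control groups did not overlap, and 15 probe sets (0.0333%) were lower without overlap in that strain. Most Slfn3 signals lay near the floor of the array, so the size of its log2 change depends on the handling of dim signals, and with 16 added to each signal it was -1.27. The change of -2.52 ± 0.58 over both strains is the mean of -4.10 ± 0.71 in controls and -0.94 ± 0.71 in del337TR, and the effects differed by 3.16 ± 1.00 (limma adjusted p = 0.956, unadjusted p = 0.00397).

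All 30 named genes had the same sign in both strains, which their choice by the mean of both effects favours. For 1 of the 15 on each side, Syndig1l and Slfn3, the difference between the strains had an unadjusted p under 0.05, against 4.90% of probe sets.

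The receptor of the activator was read next. Ppara had 639.4, 1001.7 and 1475.8 in treated controls on its brightest probe set, against 694.0, 1159.8 and 1386.0 in untreated controls. In del337TR it had 480.7, 799.9 and 1001.6 with WY14643, against 870.8, 1043.9 and 1134.0 without. In del337TR 5 of 7 treated arrays lay below every untreated one, while the control groups overlapped. The 3 Ppara probe sets stood at -0.36 ± 0.13, -0.35 ± 0.11 and -0.37 ± 0.14 over both strains (limma adjusted p = 0.540, 0.463 and 0.571), below 0 in both strains on each. They may share transcripts and are not separate evidence.

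Partners and coregulators of PPARalpha, 17 genes measured of 19, had 8 members higher and 9 lower, with 1 higher and 2 lower at an unadjusted p under 0.05 (2.51% and 5.70% of all genes) and a median of -0.01. Besides Ppara, the lower one was Ppargc1b, a coactivator of mitochondrial genes, at -0.46 ± 0.18 (limma adjusted p = 0.604). The higher one was Nrip1, a corepressor of nuclear receptors, at 0.14 ± 0.06 (limma adjusted p = 0.651). Ppargc1a, the related coactivator, stood at -0.28 ± 0.16. The partner Rxra stood at 0.03 ± 0.08 on its brightest probe set and at -0.39 ± 0.22 and 0.18 ± 0.22 on the others. Thra, the thyroid hormone receptor alpha, stood at -0.04 ± 0.08 on its brightest probe set and at -0.35 ± 0.11 and -0.49 ± 0.15 on the other two, and Thrb at -0.11 ± 0.11.

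Genes listed as PPARalpha targets of lipid uptake, storage and fuel switching stood on both sides of 0. The list was written from general knowledge, and its members are not equally established as targets. Of 34 listed genes 30 were measured, with 16 higher and 14 lower, a median of 0.02 and a mean of -0.07, so median and mean differ in sign. With quantile normalization the median was -0.03. At an unadjusted p under 0.05 there were 1 higher and 4 lower of the 30, where 2.51% and 5.70% of all genes stood.

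Among the targets, Pdk4, the kinase that shuts off pyruvate oxidation, averaged 13000 ± 1454 with WY14643 and 11990 ± 964 without (SD, n = 14 each), a log2 change of 0.11 ± 0.06. Ucp3, a mitochondrial uncoupling protein of muscle, stood at 0.18 ± 0.20, with 815 ± 426 with WY14643 and 675 ± 227 without. Fabp3, which carries fatty acids in the heart cell, stood at 0.13 ± 0.07, and Lpl, which frees fatty acids from lipoproteins, at 0.13 ± 0.08. Each is a textbook target, and none of these 4 had an unadjusted p under 0.05. With quantile normalization Pdk4 and Fabp3 stood at 0.00 and Lpl at 0.03, and without replicate 3 of the untreated controls Ucp3 stood at 0.07. Acot2, a mitochondrial acyl-CoA thioesterase, was the 1 target above 0 with an unadjusted p under 0.05, at 0.19 ± 0.09 (limma adjusted p = 0.657). Cd36, the fatty acid transporter, stood at 0.06 ± 0.06, and Cpt1a, of mitochondrial fatty acid entry, at -0.03 ± 0.08.

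On the lower side Angptl4, an inhibitor of Lpl, had 208.5, 692.0 and 802.3 in treated controls, against 173.7, 1007.9 and 2273.3 in untreated controls. In del337TR it had 289.1, 689.4 and 1518.2 with WY14643, against 479.1, 812.4 and 1378.1 without. The groups overlapped widely. Its log2 change was -0.66 ± 0.32 (limma adjusted p = 0.666), and a second, dimmer Angptl4 probe set stood at 0.68 ± 0.44. Cyp4b1 stood at -0.29 ± 0.12, Tfeb, a regulator of lysosome genes, at -0.22 ± 0.09 and Vnn1, a pantetheinase, at -0.35 ± 0.17. Plin2, a lipid droplet coat protein, stood at -0.16 ± 0.13 and Acot1 at -0.26 ± 0.17.

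**Figure D3:**
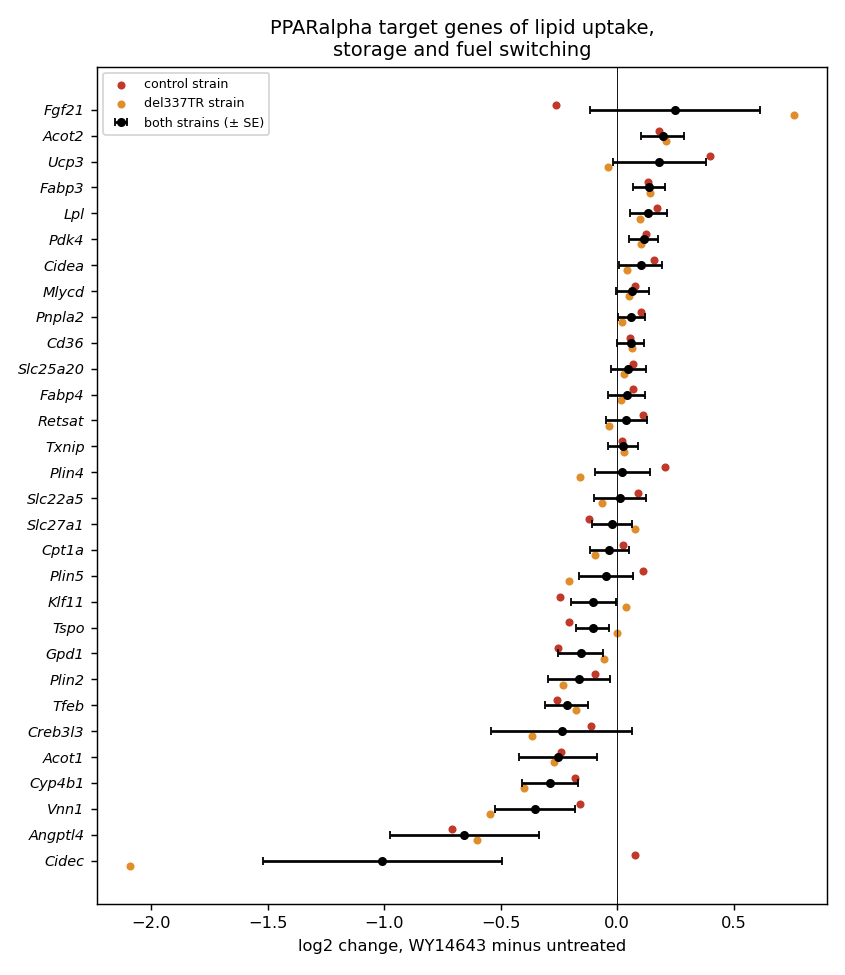
Log2 change with WY14643 (x axis) of the 30 measured PPARalpha target genes, with black points for both strains ± SE and coloured points for each strain. Most genes lie within 0.3 of 0, the largest downward values being Cidec and Angptl4.

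Fuel oxidation genes stood slightly above 0 in most members. All 20 measured genes of mitochondrial beta-oxidation were higher with WY14643 (median 0.09), as were 31 of 32 of the respiratory chain and ATP synthase (median 0.11) and 15 of 16 of the citric acid cycle (median 0.09). Of glycolysis, glucose uptake and pyruvate oxidation 20 of 24 were higher (median 0.10), as were all 20 sarcomere genes (median 0.11). At an unadjusted p under 0.05 there were 2, 1, 1, 5 and 0 members, in that order, all higher, where 2.51% of all genes stood. The medians were larger within controls (0.12, 0.16, 0.12, 0.12 and 0.13) than within del337TR (0.03, 0.04, 0.05, 0.05 and 0.07), a difference not tested as a list. Within controls 8 respiratory chain and 6 glycolysis genes were higher at an unadjusted p under 0.05, and within del337TR 0 of either list, while 2 glycolysis genes were lower in controls. Over all probe sets, both directions together, 6.75% reached this level in controls and 5.78% in del337TR. With quantile normalization these medians were 0.01, 0.02, 0.01, 0.01 and 0.00. Then 11 of 20, 23 of 32, 11 of 16, 14 of 24 and 10 of 20 were higher, so the sarcomere list no longer had most members above 0, the other lists still had, and the medians stood near 0. Brightness moved with these values. Among the brightest 1818 of the 18193 genes the median was 0.04 and 70.6% were higher, and with quantile normalization that median was 0.00. As deposited, the median of these brightest genes was 0.06 within controls and 0.01 within del337TR.

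Within them, Acadvl, which begins the oxidation of very long fatty acids, stood at 0.13 ± 0.06 and Etfb, an electron carrier of beta-oxidation, at 0.13 ± 0.06. Within controls Acadvl stood at 0.24 and Etfb at 0.22, and within del337TR at 0.03 and 0.04 (unadjusted p of the difference between strains 0.0840 and 0.161). Idh3a, of the citric acid cycle, stood at 0.15 ± 0.06, with 7921 ± 904 with WY14643 and 7139 ± 590 without (SD, n = 14 each). Hk2, the inducible hexokinase, stood at 0.27 ± 0.11. Each had an unadjusted p under 0.05 and none passed limma's adjusted threshold. Of ketone body and branched-chain amino acid use 9 of 14 genes were higher, with Oxct1, which activates ketone bodies, at 0.16 ± 0.05 and Bdh1 at 0.24 ± 0.10 at an unadjusted p under 0.05. In peroxisomal lipid metabolism 13 of 20 genes stood above 0 (median 0.04), and 0 had an unadjusted p under 0.05.

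Triglyceride synthesis and lipogenesis were mixed. Dgat2, which makes triglyceride, averaged 3922 ± 1281 with WY14643 and 2894 ± 531 without (SD, n = 14 each), a log2 change of 0.40 ± 0.13 (limma adjusted p = 0.504). Dgat1 stood at 0.17 ± 0.07 and Mlxipl, a glucose-sensing transcription factor, at 0.21 ± 0.09. Fasn, the fatty acid synthase, stood at -0.32 ± 0.12 and Scd2, a desaturase, at -0.24 ± 0.10. Over the 18 measured genes 10 were higher, with a median of 0.01. In del337TR 4 of the 18 were higher, with a median of -0.12, and in controls 14 were, with a median of 0.10. A test of this difference as a list was not made.

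**Figure D4:**
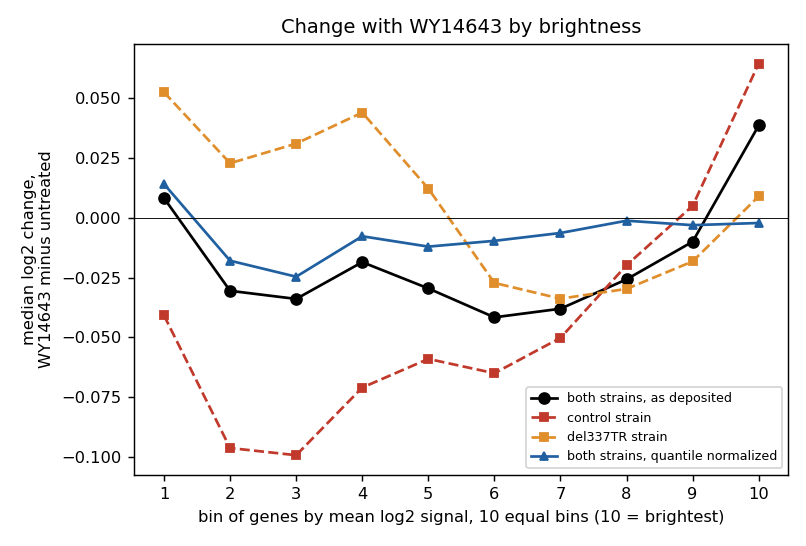
Median log2 change with WY14643 (y axis) over 10 equal bins of genes by mean log2 signal (x axis, 10 is the brightest), as deposited for both strains and for each strain, and with quantile normalization. The brightest bin stands at 0.04 as deposited and at 0.00 with quantile normalization.

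Heat shock chaperones, which refold damaged proteins, had 18 of 19 measured members higher with WY14643, with a median of 0.13. With quantile normalization 16 were higher and the median was 0.09. At an unadjusted p under 0.05 there were 6 members, all higher (457 of 18193 genes, 2.51%, were higher at this level). They were Hspb8, Hspa1a, Hspa1b, Bag3, Dnajb1 and Hspa5. The list was higher in 17 of 19 members in controls and in 19 of 19 in del337TR, with medians of 0.090 and 0.125. At an unadjusted p under 0.05 there were 0 members within controls and 5 within del337TR. Over all probe sets, both directions together, 6.75% reached this level in controls and 5.78% in del337TR. The difference between the strains was not tested as a list.

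Hspa1a, the inducible Hsp70, had 284.8, 489.9 and 718.1 in treated controls, against 159.8, 393.4 and 529.2 in untreated controls. In treated del337TR hearts it had 577.0, 789.6 and 1340.8, against 158.3, 462.9 and 855.6 in untreated del337TR hearts. Every group overlapped its partner. The log2 change was 0.70 ± 0.23 (limma adjusted p = 0.492), with 0.51 ± 0.33 in controls and 0.89 ± 0.33 in del337TR. Hspa1b stood at 0.52 ± 0.21 on its brightest probe set, but the near-identical Hspa1a and Hspa1b may share signal. Hspb8, a small heat shock protein that works with Bag3, had 4832.0, 5227.8 and 5475.2 in treated controls, against 3821.0, 4572.5 and 5662.9 in untreated controls. In del337TR its signals were 4522.2, 6050.9 and 6255.2 with WY14643, against 3899.7, 4407.2 and 5630.0 without. All 14 treated arrays of Hspb8 lay above the untreated median, with a log2 change of 0.24 ± 0.07 (limma adjusted p = 0.463). The dimmest Hspb8 probe set stood at -0.23 ± 0.21. Bag3, its co-chaperone, stood at 0.17 ± 0.07.

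Immediate early genes, which respond first to stimuli, had 15 of 24 higher. Nr4a3, a nuclear receptor of this class, stood at 0.85 ± 0.30 and Jund at 0.30 ± 0.09, while Ier3 stood at -0.57 ± 0.22 and Klf6 at -0.28 ± 0.11. Of these 4, each had an unadjusted p under 0.05, 2 on each side of the 24, where 2.51% of all genes stood higher and 5.70% lower. The cell cycle list had 17 of 22 higher (median 0.12), with 4 higher and 1 lower at an unadjusted p under 0.05, where 2.51% and 5.70% of all genes stood. Those higher were Cdc20, Mcm6, Plk1 and Cdkn1a, a cell cycle inhibitor. The lower one was G0s2, which this list also holds and which is described above as an inhibitor of Pnpla2. Cdc20, an activator of the anaphase complex, stood at 0.28 ± 0.09 and Cdkn1a at 0.33 ± 0.15. Replicate 6 of untreated del337TR was the lowest Cdkn1a array, at 972.7, and replicate 6 of untreated controls the lowest Mcm6 array, at 8.0. Over the alternative settings and the repeats with 1 array missing, Cdkn1a fell as low as 0.19 and Mcm6 as low as 0.35. Adrenergic and angiotensin signalling had 4 of 14 higher and 4 lower at an unadjusted p under 0.05 (5.70% of all genes), the signalling regulators Rgs2, Rgs4, Grk5 and Pde4d. Rgs2 stood at -0.27 ± 0.12 and Grk5 at -0.33 ± 0.14. Cholesterol synthesis and uptake had 2 of 13 higher, with 0 at an unadjusted p under 0.05 and a median of -0.08.

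**Figure D5:**
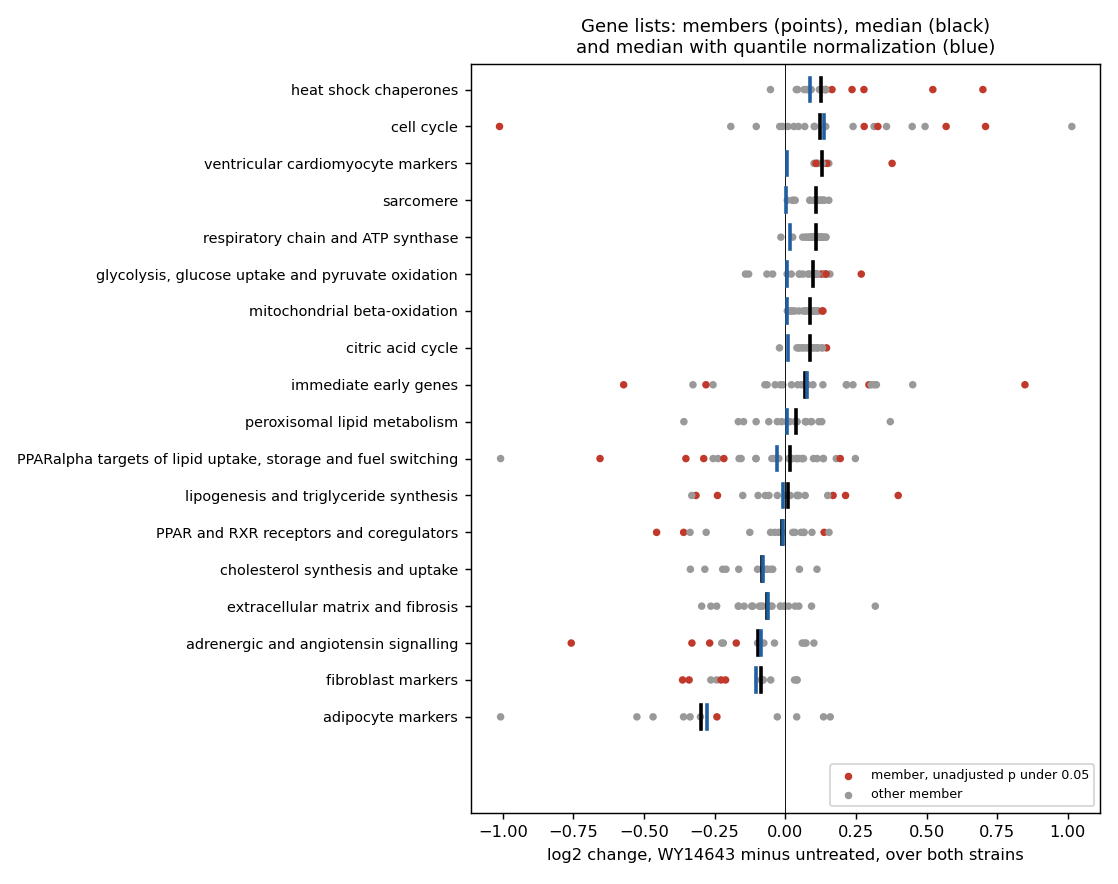
Log2 change with WY14643 over both strains (x axis) for members of 18 gene lists, with members as points, the median in black and the median after quantile normalization in blue. Heat shock chaperones and the cell cycle keep a median above 0 under both, while the bright lists of fuel oxidation and sarcomere stand near 0 with quantile normalization.

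Markers of other cells were read beside these genes. Fibroblast markers had 3 of 14 higher, a median of -0.08 and 4 lower at an unadjusted p under 0.05 (5.70% of all genes), among them Tcf21, a fibroblast transcription factor, at -0.34 ± 0.11 (461 ± 69.0 with WY14643 and 598 ± 180 without, SD, n = 14 each) and Pdgfra at -0.36 ± 0.15. In bulk tissue, fewer cells of a type and less RNA per cell cannot be told apart. Adipocyte markers had 3 of 11 higher and a median of -0.30. The adipocyte score, from Adipoq and Retn, was 6.00 ± 0.64 with WY14643 and 6.41 ± 0.68 without (two-sided permutation p = 0.112, adjusted 0.310). The means lay opposite ways in the strains, a difference not tested, with 6.40 ± 0.49 in treated and 6.05 ± 0.69 in untreated controls (exact permutation p = 0.284), and 5.59 ± 0.52 in treated and 6.78 ± 0.48 in untreated del337TR (exact permutation p = 0.00233). With this score as a covariate G0s2, which fat also expresses, stood at -0.89 ± 0.24 (limma adjusted p = 0.516). Ventricular markers had 12 of 12 higher and a median of 0.13, which was 0.01 with quantile normalization. Of the 47 lists 28 had a median above 0, and 0 of their members passed limma's adjusted threshold.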

How the data were processed

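Biotin-labelled RNA from 28 mouse hearts was hybridised to 1-colour Affymetrix-type arrays. The authors deposited 1 intensity value per probe set and array. The submitters' processing notes name RMA, with a version not given in the sources used here, but the deposited intensity values are linear, with a mean of 249.9 on every array after trimming 2% at each end, and were treated as globally scaled signals. Of 45101 probe sets, 64 array controls were left out and 45037 tested. In the probe annotation 34945 of them have 1 gene symbol, 932 several and 9160 none, and only those with 1 symbol name a gene. No 2 arrays were the same in all their values (0 of 378 pairs).

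Values under 0.1 (3 values, all 0) were set to 0.1 before taking log2. limma 3.58.1 in R 4.3.3 fitted WY14643 with strain as covariate, with eBayes and Benjamini-Hochberg adjustment over 45037 probe sets, two-sided. A fit of 4 group means gave the effects within strains and their difference. Array measures were compared by permutation (100000 resamples, exact within strains, scipy 1.17.1, Python 3.11.15). The fit was tested on simulated data. Genes named are the 15 of smallest p in each direction, since none passed, up to 4 members of smallest p of each of 47 lists, all probe sets of the receptors, and PPARalpha targets. The members and the gene lists were chosen with earlier results of these data known. The lists hold 873 entries, of which 782 were measured, with 0 members past the threshold. Alternatives were other scalings, a filter on dim probe sets, other variance models, covariates for sex, atrial and adipocyte score, and leaving arrays out. The adipocyte score had been planned with Cfd, which no probe set with 1 symbol names here. With group means removed, same-number arrays of different groups were at most weakly alike (42 pairs, r from -0.06 to 0.10, with 1 over 0.1). Their median r was 0.02, against -0.005 for 252 other pairs. No block was used in the main fit. The number of arrays, 7 a group, limits the precision.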

Additional observations from a re-analysis of the deposited data

Results flagged for a closer look

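In 60 groups of 7 arrays, from 15 genes shown by array, the gap of the highest or lowest array to its neighbour was set against the group's range, and 2 groups exceeded Dixon's critical value for 7 samples. Chance alone marks about 1 in 20 groups. In treated controls Brd2 had 1 low array, replicate 5, at 755.1 with the next at 917.9 (gap over range 0.59). In untreated controls Ppara had 1 low array, replicate 3, at 694.0 with the next at 1104.1 (gap over range 0.671).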

How the results depend on the processing

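The count of probe sets past limma's adjusted threshold was 0 as reported and 0 in all other settings fitted to all arrays, with a fold of at least 1.5 too. It was 1 without the 4 arrays least like their groups (Cobl at -1.36 ± 0.19, limma adjusted p = 0.00991). With single arrays left out it ran from 0 to 1, with 1 call without replicate 4 of treated controls (B3gntl1 at 0.76, limma adjusted p = 0.0461) and 1 without replicate 3 of treated del337TR (Faap100 at 0.96, limma adjusted p = 0.0322). The count at an unadjusted p under 0.05 was 3374 as reported, 2958 to 3789 with single arrays left out and 1414 when the probe sets of a gene were averaged, where 18193 genes were tested. With the replicate number as a block there were 0 calls and 3402 at an unadjusted p under 0.05. The labels do not say what arrays of the same number share. With group means removed, 13 of 28 arrays correlated best, among arrays of other groups, with an array of their own number. There were 42 same-number pairs and 252 other pairs, and whether the count exceeds chance was not tested. The higher share of these probe sets was 39.1% as reported, 47.7% with quantile normalization and 47.3% with centring. The glycolysis median was 0.00612 with quantile normalization, and the adipocyte median 0.0237 with the adipocyte score as covariate, which is built from 2 of its members. The correlation between strains was 0.105 with 16 added to each signal, and 51.65% of probe sets had the same sign with centring. The adipocyte score difference was -1.188 within del337TR. None of the 30 ranked genes turned sign in the 7 settings or 28 leave-outs run for them (0), which their choice by smallest p in these arrays favours. Of 244 named results 11 turned in some setting. Of 47 list medians 7 did, 4 of them with quantile normalization, and 8 of 47 did with a single array left out. The causes were not tested.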

Other observations

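Some list members not described above had an unadjusted p under 0.05 and the same sign in both strains, with none past limma's adjusted threshold. Dbp, an output gene of the circadian clock, stood at 0.48 ± 0.21 (319 ± 118 with WY14643 and 229 ± 87.5 without, SD, n = 14 each), and Arntl, a core clock activator that peaks at the opposite time of day, at -0.24 ± 0.10. Of the 20 measured clock genes 9 stood above 0 and 11 below, with a list median of -0.03. Only Dbp passed the unadjusted level on the higher side, and only Arntl on the lower side. The shares among all genes were 2.51% and 5.70%. A shift of the clock was not tested. The time of day at which hearts were taken is not given in the labels. Cyp1b1, a cytochrome P450 of the omega-oxidation and drug metabolism list, stood at -0.65 ± 0.20, with 275 ± 107 with WY14643 and 433 ± 169 without. Nfkbia, an inhibitor of NF-kappaB, stood at 0.33 ± 0.14, while Icam1, an adhesion molecule, stood at -0.46 ± 0.22 (-0.29 without replicate 1 of untreated del337TR) and the chemokine gene Ccl2, near the dim end, at -0.89 ± 0.39. Sult1a1, a sulfotransferase, stood at -0.44 ± 0.18. The pericyte markers Pdgfrb and Kcnj8 stood at -0.33 ± 0.14 and -0.39 ± 0.16. In their list, pericyte and smooth muscle markers, 5 of 13 were higher, Notch3 among them. At an unadjusted p under 0.05 there were 0 higher and 2 lower (2.51% and 5.70% of all genes). The leukocyte marker Ptprc, of the lymphocyte list, stood at -0.37 ± 0.15. In that list 3 of 13 were higher, Cd3e among them, with 0 higher and 3 lower at this level. Macrophage and monocyte markers had 5 of 15 higher, and 0 in either direction at this level.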
